A study of Mus musculus with 12 samples.

Results

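Interferon response genes are described here across sorted bone marrow cells of Cebpa-Enh/prom-hCD4 reporter mice. The members are 39 named genes, taken as array probes that carry one of those gene names, with the brightest probe standing for a gene. All 39 of 39 were found, through 52 probes, among 31541 gene names on the array, and 12 of them had several probes. Every one of the 39 had a probe detected well over background by both arrays of some group, the condition for entering the tests, which covered 18556 genes, and 33 were well above background on all 12 arrays.

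The mice were female C57BL/6 animals aged 16 weeks, and all carried a reporter in which Cebpa regulatory sequence (enhancer and promoter) drives human CD4, written hCD4. Cebpa encodes a transcription factor of myeloid development. Each of 6 groups had 2 single-colour Agilent arrays: hCD4+ granulocyte-monocyte progenitors (GMP), hCD4- and hCD4+ pre-pro-B cells, hCD4- and hCD4+ pro-B cells, and pre-B cells, for which no hCD4 status is stated. The series title speaks of 2 mice, but the labels do not tie an array to an animal, so the p-values measure the spread between these arrays, which may be technical.

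Type I interferon binds the receptor made of Ifnar1 and Ifnar2, whose kinases activate STAT proteins, Stat2 among them. Stat2 and Irf9 are parts of the factor ISGF3, which binds interferon-stimulated response elements before genes whose products sense viral RNA, block translation or degrade RNA, while interferon gamma acts on gamma-activated sites. In marrow, plasmacytoid dendritic cells are known as producers of type I interferon and hold high Irf7 at rest.

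Of the 39 members, 30 have an entry in the RefSeq promoter table (build GRCm38.p6), read here over the 250 bases before the start site. The core of the response element, GAAA, any 2 bases and GAAA again, searched on either strand (TTTC, any 2 bases and TTTC on the other), was present before 11 of the 30 members (36.7%) and before 936 of 27025 genes in the table (3.46%). The gamma-activated site TTCNNNGAA, which reads the same on both strands, was present before 6 of 30 members (20%) and before 8.13% of all genes. The core was found before 4 of the 7 listed members that were higher in pro-B than in pre-pro-B arrays in both hCD4 fractions, and before 4 of the 11 listed members that were lower in both, so it occurred in both sets. These 8 matches are shown because the 2 sets moved in opposite directions. Each window is read along its gene's strand with the match in capitals; where a gene has several matches the one nearest the start is given. The first 4 fell from pre-pro-B to pro-B and the last 4 rose. Their regions are chr10:128270256-128270305 (plus strand) for Stat2, chr12:26456543-26456592 (minus) for Rsad2, chr11:58199502-58199551 (plus) for Igtp, chr11:48871421-48871464 (minus) for Irgm1, chr19:34640784-34640833 (plus) for Ifit1, chr5:120907526-120907559 (minus) for Oas1a, chr3:142620584-142620633 (plus) for Gbp2 and chr3:142559985-142560034 (plus) for Gbp3.
Stat2: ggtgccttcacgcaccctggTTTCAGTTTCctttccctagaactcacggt
Rsad2: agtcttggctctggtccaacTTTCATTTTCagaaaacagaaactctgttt
Igtp: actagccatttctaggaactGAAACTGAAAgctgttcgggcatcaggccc
Irgm1: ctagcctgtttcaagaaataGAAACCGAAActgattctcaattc
Ifit1: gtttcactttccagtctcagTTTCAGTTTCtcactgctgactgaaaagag
Oas1a: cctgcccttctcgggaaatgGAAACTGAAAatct
Gbp2: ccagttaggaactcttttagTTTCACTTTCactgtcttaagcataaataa
Gbp3: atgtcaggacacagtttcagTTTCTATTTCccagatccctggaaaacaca

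A level is the log2 of a probe's background-corrected intensity minus the array's 75th percentile, so levels are compared between groups and never between genes. Replicate arrays correlated at 0.982 to 0.992, and 50.6% to 56.7% of probes were well above background. The dimmest pair was hCD4- pre-pro-B, whose 75th percentile was 247 and 362 intensity units against 435 to 953 elsewhere, and it had the widest replicate spread (median SD 0.221 over all tested genes against 0.0976 to 0.152). Over the members that median SD was 0.118 for that pair and from 0.0653 up to 0.16 elsewhere. The 12 arrays lay on 3 slides of 4, each holding 2 whole groups. In 6 of the 9 comparisons made, the slide cannot be told apart from the group; the other 3, each within 1 slide, set GMP against hCD4- pre-pro-B, hCD4- pro-B beside hCD4+ pre-pro-B, and pre-B against hCD4+ pro-B.

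The pre-pro-B label was checked against a list of 12 B lineage genes. On both arrays, 6 of 12 were well above background in hCD4- and 7 of 12 in hCD4+ pre-pro-B cells, among them Cd79a, Cd79b, Vpreb1, Dntt, Blnk and Bst1. The list's summed level, in units of each array's 75th percentile intensity, was 127 to 135 and 106 to 109 on these arrays, against 8.9 to 9.86 on GMP and 608 to 974 on pro-B and pre-B arrays. Ebf1 and Pax5 were not well above background on any pre-pro-B array of either fraction and were well above it on every pro-B and pre-B array. All 18 plasmacytoid dendritic cell markers were well above background on both arrays of each pre-pro-B fraction, and also on both hCD4+ pro-B arrays. On both arrays of the other groups, 16 of these markers were so in hCD4- pro-B, 14 in pre-B and 12 in GMP. Their summed level, in the same units, was 1480 to 1530 on hCD4- and 1110 to 1160 on hCD4+ pre-pro-B arrays, against 167 to 174 on hCD4- pro-B, 246 to 256 on hCD4+ pro-B, 320 to 339 on pre-B and 159 to 164 on GMP arrays. Of these markers, Bst2, Irf8, Tlr7 and Tlr9 also belong to the interferon pathway lists used below.

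Most members varied among the sorted groups, as did most tested genes, and the members did not vary as a block. A moderated F test over the 6 groups (limma, Benjamini-Hochberg over all genes) called 36 of 39 members, and 82.8% of all tested genes were called in the same way. Oas3, Ifi35 and Tap1 were not called. The mean was highest in hCD4- pre-pro-B arrays for 19 members, in hCD4- pro-B for 8, in hCD4+ pre-pro-B for 5, in GMP for 4 and in pre-B for 3, and for none in hCD4+ pro-B. Over all tested genes, 22.1% had their highest mean in hCD4- pre-pro-B, 11.5% in hCD4- pro-B and 6% in hCD4+ pre-pro-B arrays. For GMP, pre-B and hCD4+ pro-B arrays these shares were 26.4%, 23.9% and 10%. The lowest mean fell in GMP arrays for 22 members, against 25.2% of all genes, and in pre-B arrays for 9, against 15.8%.

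**Figure D1:**
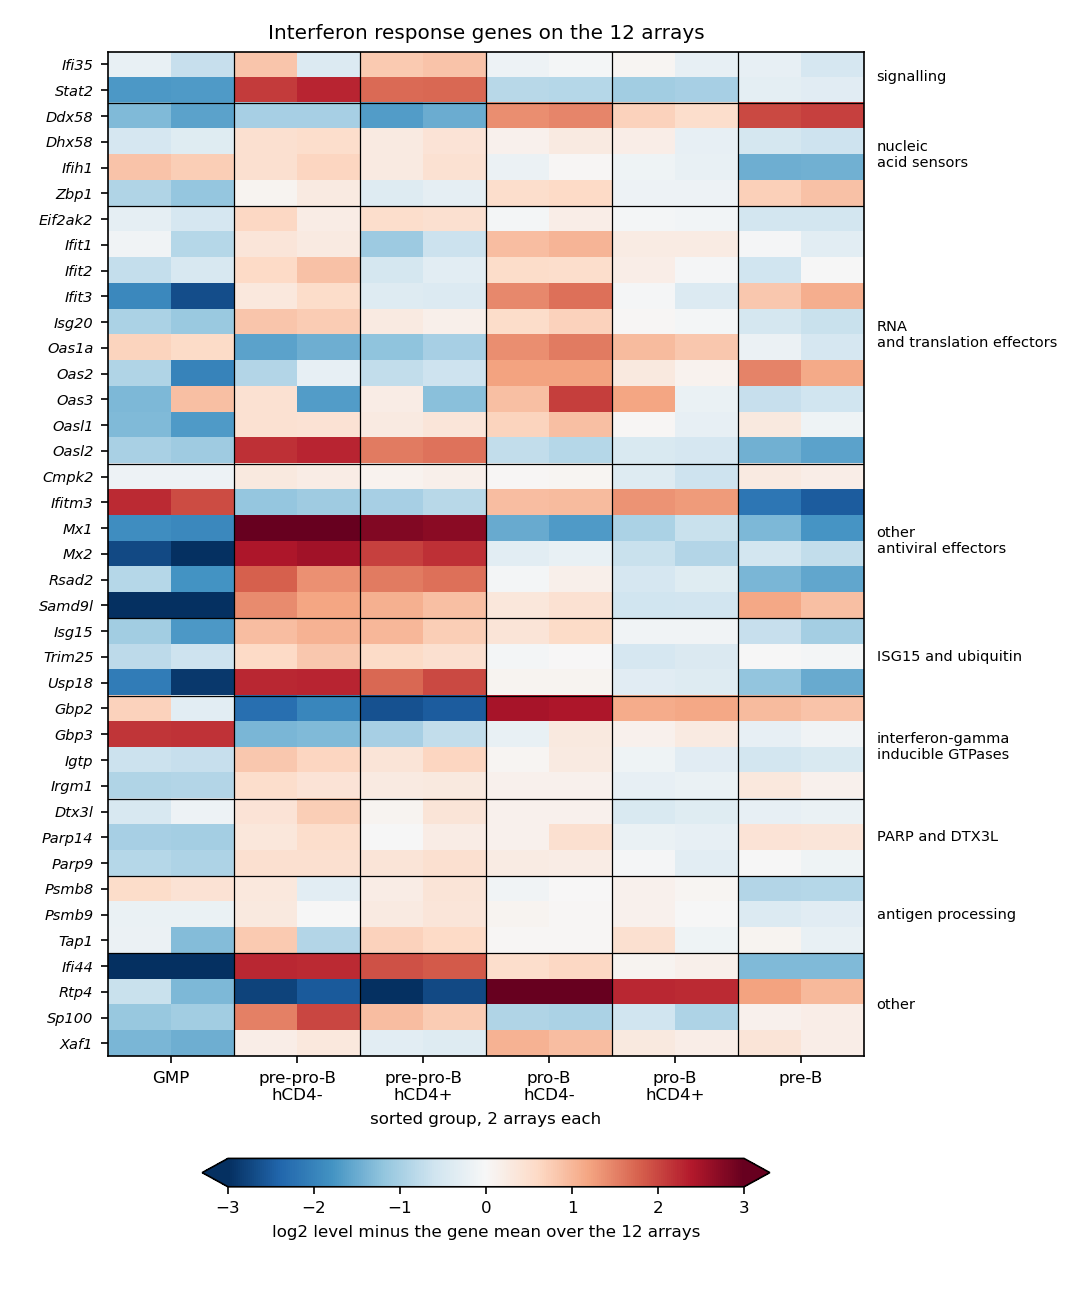
Levels of the 39 interferon response genes on the 12 arrays, drawn as the log2 level minus each gene's mean over the arrays, with rows grouped by role and 2 columns per sorted group. Mx1, Mx2, Stat2, Usp18, Oasl2 and Ifi44 are high in both pre-pro-B groups, Rtp4, Gbp2 and Oas1a are low there and high in pro-B, and 22 members have their lowest mean in GMP.

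From the pre-pro-B to the pro-B gate some members fell and others rose, as did genes over the whole array. The share of members that fell was above that of all genes, and the share that rose was below it. Within the hCD4- fraction 14 members fell (35.9%, against 26.8% of all genes) and 11 rose (28.2%, against 32.8%). The median log2 change was -0.21 over members and 0.03 over all genes, and 59.6% of all genes were called in either direction. Within the hCD4+ fraction, whose arrays are different ones, 18 members fell (46.2%, against 21.2% of all genes) and 8 rose (20.5%, against 32.9%). The medians were -0.47 over members and 0.25 over all genes, and 54.1% of all genes were called in either direction. The 14 that fell in both fractions were Stat2, Ifih1, Oasl2, Mx1, Mx2, Rsad2, Samd9l, Usp18, Trim25, Igtp, Irgm1, Dtx3l, Ifi44 and Sp100. They were 35.9% of the 39 members, while 16.3% of all genes fell in both. They were 100% of the members that fell in the hCD4- fraction and 77.8% of those in the hCD4+ fraction. Over all genes, 3017 fell in both, of 4974 that fell in the hCD4- fraction and 3932 in the hCD4+ fraction. The 8 that rose in both were Ddx58, Ifit1, Oas1a, Ifitm3, Gbp2, Gbp3, Rtp4 and Xaf1, or 20.5% of the 39 members, against 22.9% of all genes. They were 72.7% of the members that rose in the hCD4- step and 100% of those in the hCD4+ step. Over all genes, 4246 rose in both, of 6085 that rose in the hCD4- step and 6100 in the hCD4+ step. In these bulk samples fewer cells of a type and less RNA per cell cannot be told apart.

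**Figure D2:**
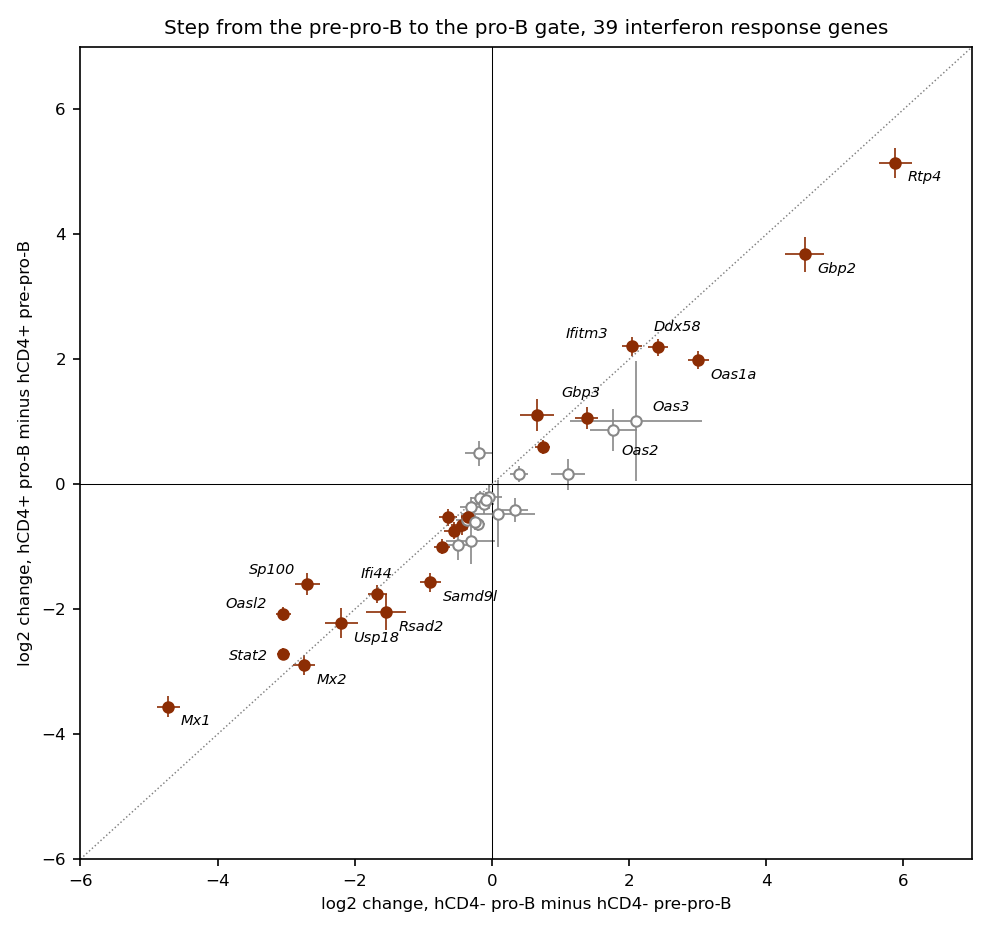
Log2 change from pre-pro-B to pro-B for the 39 members, in the hCD4- fraction on the horizontal axis and in the hCD4+ fraction on the vertical axis, with bars of 1 standard error and a dotted line of equal change; filled points were called in the same direction in both fractions. Rtp4 lies farthest up, at 5.88 and 5.15, and Mx1 farthest down, at -4.72 and -3.56.

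Plasmacytoid dendritic cell markers moved with the set that fell. Of the 18, none rose and 18 fell in the hCD4- step, with a median log2 change of -4.62, and none rose and 15 fell in the hCD4+ step, with a median of -2.62. All 12 B lineage markers rose in both steps. S and G2/M phase markers rose in the same direction, 8 of 8 in the hCD4- step and 7 of 8 in the hCD4+ step, their summed level being 21.3 to 27.9 on hCD4- pre-pro-B and 270 to 294 on hCD4- pro-B arrays. Mature neutrophil markers summed to 13.7 to 24.9 on hCD4- pro-B arrays and to at most 3.92 on any other array, with 6 of 7 tested rising in the hCD4- step and 1 of 7 in the hCD4+ step. The part of any of these markers in the members' changes was not tested.

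Among signalling genes, Stat2, a part of ISGF3, was high in both pre-pro-B groups. Its probe lies at chr10:127729834-127729893 on build mm9, the build of all probe positions given here. Stat2 levels were 5.05 and 5.25 on hCD4- pre-pro-B, 4.65 and 4.68 on hCD4+ pre-pro-B, 2.13 and 2.10 on hCD4- pro-B, 1.92 and 1.97 on hCD4+ pro-B, 2.67 and 2.61 on pre-B and 1.23 and 1.25 on GMP arrays. The pre-pro-B arrays lay above all others with no overlap, and the GMP arrays below all others. The fall to pro-B was -3.04 (SE 0.10, limma adjusted p = 1.69e-07) in the hCD4- and -2.72 (SE 0.10, adjusted p = 1.22e-06) in the hCD4+ fraction. Ifi35, an interferon-induced leucine zipper protein, was not called in any of the 9 comparisons, and its hCD4- pre-pro-B arrays, at 1.59 and 0.34, spanned the values of most other groups.

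The sensors of foreign nucleic acid went different ways. Ddx58, which encodes the RNA sensor RIG-I (probe at chr4:40151893-40151952), had levels of -1.04 and -1.06 on hCD4- pre-pro-B, -1.72 and -1.55 on hCD4+ pre-pro-B, 1.33 and 1.41 on hCD4- pro-B, 0.64 and 0.47 on hCD4+ pro-B, 1.92 and 1.99 on pre-B and -1.37 and -1.67 on GMP arrays. Pro-B and pre-B arrays thus lay above pre-pro-B and GMP arrays without overlap. Ddx58 rose by 2.42 (SE 0.14, limma adjusted p = 1.76e-06) in the hCD4- and by 2.19 (SE 0.14, adjusted p = 7.26e-06) in the hCD4+ step; in the authors' processed table, fitted the same way, the rises were 1.4 and 1.2. Ifih1, which encodes the long double-stranded RNA sensor MDA5, ran the other way. Its levels were -0.59 and -0.43 on hCD4- pre-pro-B, -0.80 and -0.60 on hCD4+ pre-pro-B, -1.25 and -1.04 on hCD4- pro-B, -1.19 and -1.28 on hCD4+ pro-B, -2.53 and -2.51 on pre-B and -0.22 and -0.33 on GMP arrays. Ifih1 was thus highest in GMP, where most members were lowest, and lowest in pre-B. Dhx58, which encodes their relative LGP2, was not called in either step, and Zbp1, a sensor of Z-form nucleic acid, rose by 0.40 (SE 0.13, limma adjusted p = 0.0263) in the hCD4- step, the hCD4+ change being 0.17 (SE 0.13, adjusted p = 0.291).

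Effectors that act on RNA or translation number 10. Oas1a, an oligoadenylate synthetase that activates RNase L, and Oasl2, an oligoadenylate synthetase-like protein, moved apart. Oas1a (chr5:121346735-121346794) had levels of 0.26 and 0.39 on hCD4- pre-pro-B, 0.64 and 0.86 on hCD4+ pre-pro-B, 3.26 and 3.41 on hCD4- pro-B, 2.81 and 2.66 on hCD4+ pro-B, 1.68 and 1.36 on pre-B and 2.53 and 2.43 on GMP arrays. Oasl2 (chr5:115362168-115362227) had levels of 1.70 and 1.79 on hCD4- pre-pro-B, 1.06 and 1.12 on hCD4+ pre-pro-B, -1.24 and -1.36 on hCD4- pro-B, -0.96 and -1.01 on hCD4+ pro-B, -1.93 and -2.11 on pre-B and -1.46 and -1.57 on GMP arrays. For Oas1a the pre-pro-B arrays were the lowest of all 12, and for Oasl2 they were the highest. Oas1a rose by 3.01 (SE 0.15, limma adjusted p = 8.18e-07) and Oasl2 changed by -3.04 (SE 0.11, adjusted p = 2.42e-07) in the hCD4- step. In the hCD4+ step the changes were 1.99 (SE 0.15, adjusted p = 1.70e-05) and -2.08 (SE 0.11, adjusted p = 4.09e-06).

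Oas2, a neighbour of Oas3 and like it an oligoadenylate synthetase, was at -2.25 and -1.63 on hCD4- and -2.12 and -2 on hCD4+ pre-pro-B arrays, at -0.17 on both hCD4- pro-B arrays, at -1.09 and -1.28 on hCD4+ pro-B, 0.11 and -0.23 on pre-B and -2.28 and -3.38 on GMP arrays. It rose by 1.77 (SE 0.34, limma adjusted p = 0.00228) in the hCD4- step, and the hCD4+ change was 0.87 (SE 0.34, adjusted p = 0.0595). The Oas3 probe was dim, well above background on 6 of 12 arrays, with GMP arrays at -5.64 and -3.41, and was not called in any comparison. Oasl1, whose product limits Irf7 translation, was not called in either step, at 0.33 (SE 0.19, adjusted p = 0.167) and -0.41 (SE 0.19, adjusted p = 0.102).

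The Ifit genes, whose products bind viral RNA and block its translation, lie in 1 cluster on chromosome 19 and were dim on these arrays. Ifit3 was at -3.20 and -2.97 on hCD4- pre-pro-B, -3.90 and -3.93 on hCD4+ pre-pro-B, -2.07 and -1.87 on hCD4- pro-B, -3.56 and -3.94 on hCD4+ pro-B, and -2.71 and -2.44 on pre-B arrays, and not well above background on either GMP array. The hCD4- pro-B arrays were the highest and did not overlap any other group. Ifit3 rose by 1.11 (SE 0.25, limma adjusted p = 0.0046) in the hCD4- step, and the hCD4+ change was 0.16 (SE 0.25, adjusted p = 0.602). Ifit1 was well above background on the 4 pro-B arrays alone. It was at least 1.36-fold higher on hCD4- pro-B than on hCD4- pre-pro-B arrays, a call at the threshold (limma adjusted p = 0.05) that held in 11 of 23 alternatives. It was at least 1.23-fold higher on hCD4+ pro-B than on hCD4+ pre-pro-B arrays (limma adjusted p = 0.0059). The hCD4+ call ended under 5 alternative treatments of the data, with a log2 change of 0.10 and adjusted p = 0.464 under normexp background correction with quantile normalization. Such bounds set the mean of the brighter group against, on each array of the dimmer group, the higher of that array's detection floor and the probe's own signal. Ifit2 was not called in either step (-0.19, SE 0.20, adjusted p = 0.446, and 0.50, SE 0.20, adjusted p = 0.069). The exonuclease gene Isg20 and Eif2ak2, which encodes the kinase PKR that halts translation, had changes of -0.18 and -0.36 in the hCD4- step that were not called, and Eif2ak2 alone of them fell in the hCD4+ step (-0.57, SE 0.16, adjusted p = 0.0147).

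Both Mx genes fell in both steps. They encode dynamin-like GTPases that trap viral nucleoproteins, and RefSeq's annotation of the C57BL/6J genome classes both as transcribed pseudogenes, so these probes read their transcripts. Mx1 (chr16:97668644-97668703) was at 2.88 and 2.91 on hCD4- pre-pro-B, 2.56 and 2.50 on hCD4+ pre-pro-B, -1.72 and -1.92 on hCD4- pro-B, -1.16 and -0.88 on hCD4+ pro-B, -1.56 and -1.99 on pre-B and -2.08 and -2.15 on GMP arrays. Mx2 (chr16:97782327-97782386) was at 2.13 and 2.24, 1.77 and 1.89, -0.60 and -0.51, -0.95 and -1.16, -0.83 and -1.02 and -3 and -3.44 on arrays of the same groups in that order. For both genes every pre-pro-B array lay more than 2 log2 units above every other array. Mx1 changed by -4.72 (SE 0.17, limma adjusted p = 1.83e-07) in the hCD4- and -3.56 (SE 0.17, adjusted p = 2.22e-06) in the hCD4+ step, and Mx2 by -2.74 (SE 0.16, adjusted p = 2.48e-06) and -2.89 (SE 0.16, adjusted p = 4.94e-06).

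Other antiviral effectors divided as well. Ifitm3, a membrane protein that hinders viral fusion (chr7:148195591-148195650), was at -0.40 and -0.31 on hCD4- pre-pro-B, -0.24 and -0.07 on hCD4+ pre-pro-B, 1.67 and 1.70 on hCD4- pro-B, 2.10 and 2.02 on hCD4+ pro-B, -1.41 and -1.75 on pre-B and 2.99 and 2.71 on GMP arrays. GMP arrays were the highest, both pro-B groups came next and pre-B arrays were the lowest, with no overlap between these. Rsad2, which encodes viperin, and Cmpk2, which encodes a mitochondrial nucleotide kinase, are neighbours on chromosome 12. Rsad2 was at -1.47 and -1.91 on hCD4- pre-pro-B, -1.72 and -1.61 on hCD4+ pre-pro-B, -3.33 and -3.12 on hCD4- pro-B, -3.78 and -3.64 on hCD4+ pro-B, -4.63 and -4.83 on pre-B and -4.13 and -5.07 on GMP arrays, with 1 of 2 arrays well above background in each of the last 2 groups. Its pre-pro-B arrays were the highest. Cmpk2 fell in the hCD4+ step (-0.64, SE 0.11, limma adjusted p = 0.00153), and its hCD4- change was -0.21 (SE 0.11, adjusted p = 0.138). Samd9l, which restrains viruses and cell growth, was at 2.09 and 1.84, 1.73 and 1.56, 1.01 and 1.12, 0.06 and 0.09, 1.83 and 1.57 and -2.34 and -2.61 on hCD4- pre-pro-B, hCD4+ pre-pro-B, hCD4- pro-B, hCD4+ pro-B, pre-B and GMP arrays. Its pre-B arrays returned to pre-pro-B levels and its GMP arrays stood far below the rest.

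**Figure D3:**
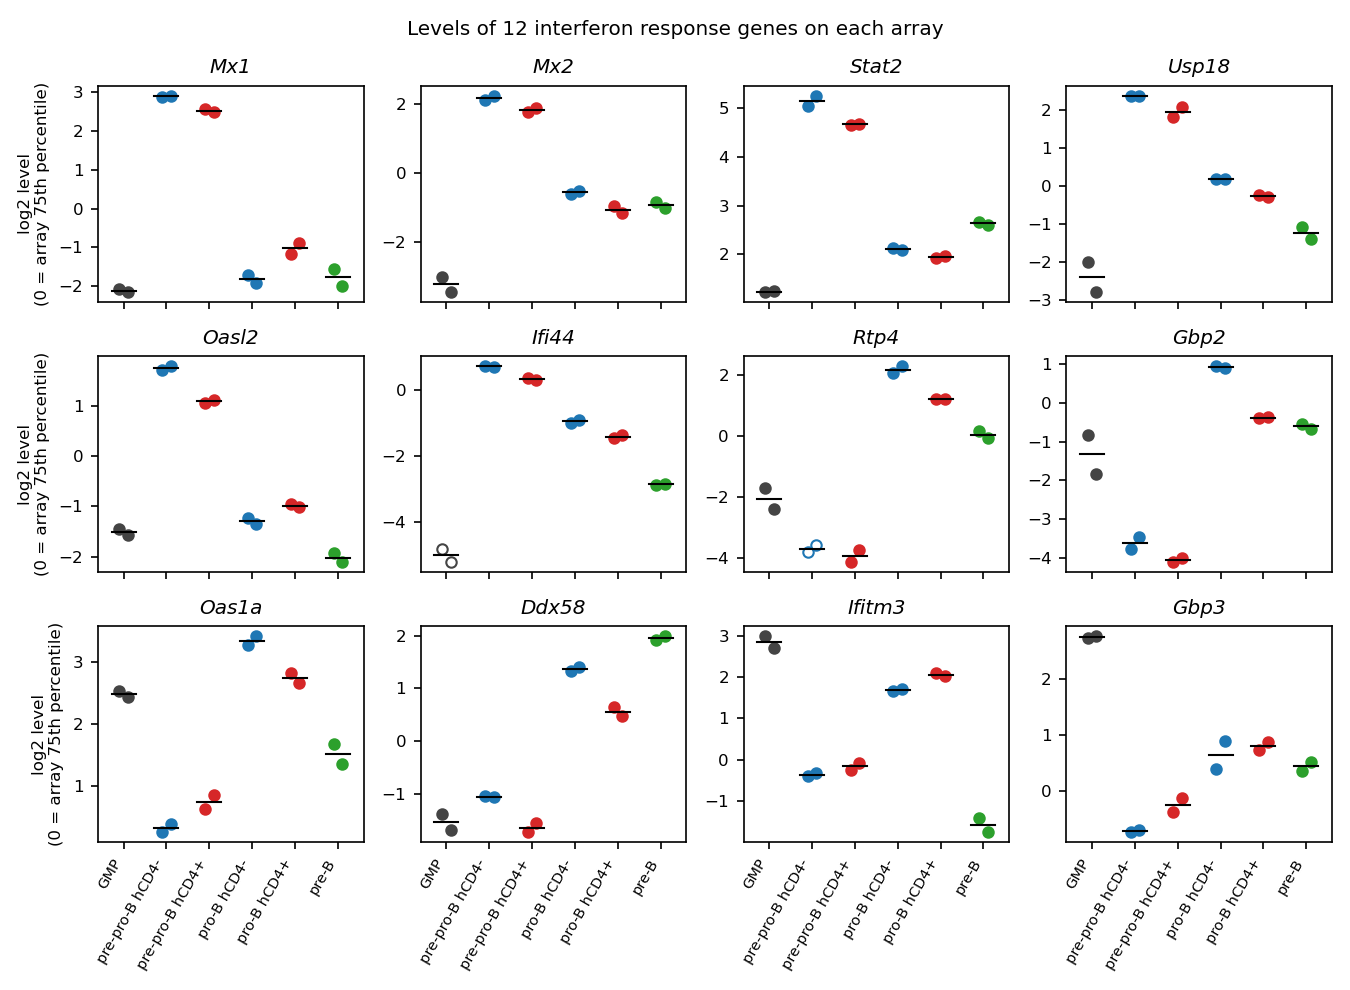
Levels of 12 members on each array, as log2 with 0 at the array's 75th percentile, by sorted group; points are arrays, lines are group means, blue is hCD4-, red is hCD4+, green is pre-B and grey is GMP. Open points mark groups where 1 or both arrays were not well above background. The first 6 genes are highest in the pre-pro-B groups, and Mx1 falls from 2.88 and 2.91 to -1.72 and -1.92 between the hCD4- pre-pro-B and pro-B arrays.

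Within the ISG15 system, a ubiquitin-like modifier and its enzymes, Usp18 changed most. Usp18, which strips ISG15 from proteins and dampens signalling at Ifnar2 (chr6:121220874-121220933), was at 2.36 and 2.37 on hCD4- pre-pro-B, 1.82 and 2.07 on hCD4+ pre-pro-B, 0.17 on both hCD4- pro-B arrays, -0.24 and -0.29 on hCD4+ pro-B, -1.08 and -1.41 on pre-B and -2 and -2.8 on GMP arrays. The 6 groups did not overlap and descended in that order, although the difference between the pre-pro-B fractions was not called (-0.42, SE 0.24, limma adjusted p = 0.27). Isg15 itself fell in the hCD4+ step (-0.98, SE 0.23, limma adjusted p = 0.00679), and its hCD4- change was -0.50 (SE 0.23, adjusted p = 0.088). Trim25, a ubiquitin ligase that acts with RIG-I, fell in both steps by its brighter probe (-0.73, SE 0.12, and -1, SE 0.12), but its other probe changed by -0.59 and 0.44, so the hCD4+ fall rests on 1 probe.

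Of the interferon gamma-inducible GTPases, 2 rose and 2 fell in both steps. Gbp2, a guanylate-binding protein of the attack on intracellular pathogens (chr3:142300719-142300778), was at -3.78 and -3.47 on hCD4- pre-pro-B, -4.12 and -4.00 on hCD4+ pre-pro-B, 0.96 and 0.91 on hCD4- pro-B, -0.40 and -0.36 on hCD4+ pro-B, -0.55 and -0.66 on pre-B and -0.82 and -1.83 on GMP arrays. Gbp3, beside it on chromosome 3, was at -0.75 and -0.71, -0.38 and -0.13, 0.39 and 0.90, 0.73 and 0.87, 0.36 and 0.51 and 2.75 and 2.78 on the same groups in order. Both were lowest in pre-pro-B, but Gbp2 was highest in hCD4- pro-B and Gbp3 in GMP arrays. The rises were 4.56 (SE 0.28, limma adjusted p = 3.06e-06) and 3.68 (SE 0.28, adjusted p = 2.13e-05) for Gbp2, the latter being 2.30 under normexp with quantile normalization, and 1.38 (SE 0.17) and 1.06 (SE 0.17) for Gbp3. The immunity-related GTPases Igtp and Irgm1 fell by smaller amounts, with changes of -0.56 and -0.74 for Igtp and -0.35 and -0.52 for Irgm1.

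Rtp4, named as a receptor transporter protein, showed the widest change of any member in these steps (chr16:23613668-23613727). It was at -3.82 and -3.57 on hCD4- pre-pro-B, where 1 of 2 arrays was well above background, -4.14 and -3.74 on hCD4+ pre-pro-B, 2.06 and 2.30 on hCD4- pro-B, 1.22 and 1.2 on hCD4+ pro-B, 0.16 and -0.07 on pre-B and -1.71 and -2.40 on GMP arrays. Rtp4 rose by 5.88 (SE 0.24, limma adjusted p = 3.71e-07) and 5.15 (SE 0.24, adjusted p = 2.29e-06). Ifi44, an interferon-induced protein of uncertain function, ran the other way, at 0.73 and 0.71, 0.38 and 0.31, -0.99 and -0.91, -1.45 and -1.37 and -2.86 and -2.85 on hCD4- pre-pro-B, hCD4+ pre-pro-B, hCD4- pro-B, hCD4+ pro-B and pre-B arrays, and not well above background on either GMP array. Sp100, a nuclear body protein, changed by -2.69 (SE 0.18, limma adjusted p = 4.96e-06) and -1.60 (SE 0.18, adjusted p = 0.000163). Xaf1, a partner of the apoptosis inhibitor XIAP, rose by 0.74 (SE 0.11) and 0.60 (SE 0.11), its other probe by 2.24 and 1.12.

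The antigen processing members were not called between these gates. For the immunoproteasome subunits Psmb8 and Psmb9 and the peptide transporter subunit Tap1, 0 of 3 were called in either step by limma and 0 of 3 had an unadjusted p under 0.05, with changes from -0.09 to 0.09 in the hCD4- and from -0.47 to -0.20 in the hCD4+ step. Psmb9 and Tap1 lie 226 bases apart on chromosome 17 of GRCm38.p6. Tap1 was at 0.25 and -1.42 on the hCD4- pre-pro-B arrays, and the SE of its changes was 0.54, so a change of that size was not detectable. Parp9, Parp14 and Dtx3l encode ADP-ribosyltransferases and their ubiquitin ligase partner. Of these, 1 of 3 fell in the hCD4- step (26.8% of all genes) and 2 of 3 in the hCD4+ step (21.2%).

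The same stage difference could be read within 1 slide through the hCD4- pro-B and the hCD4+ pre-pro-B arrays, which also differ in hCD4. The arrays of both groups also enter the steps above, so this comparison is not independent of them. There 13 members rose (29.3% of all genes rose) and 12 fell (18.6%), where 47.9% of all genes were called in either direction, and under cyclic loess normalization the split was 12 and 18. Rtp4 (6.12, SE 0.24, limma adjusted p = 4.50e-07), Gbp2 (4.99, SE 0.28, adjusted p = 2.83e-06) and Ddx58 (3.01, SE 0.14, adjusted p = 8.32e-07) rose most. Mx1 (-4.35, SE 0.17, adjusted p = 3.87e-07), Stat2 (-2.55, SE 0.10, adjusted p = 5.16e-07) and Oasl2 (-2.39, SE 0.11, adjusted p = 1.03e-06) had the largest falls. The Ddx58 rise was 1.8 in the authors' processed table. Several falls were smaller here than in the steps across slides, such as Mx2 (-2.38) and Usp18 (-1.78), and Igtp, Irgm1 and Dtx3l were not called. Of the plasmacytoid dendritic cell markers, 16 of 18 fell there too.

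Reporter status was compared within each gate, and members called were mostly lower in the hCD4+ cells. In each gate the hCD4+ and hCD4- arrays lay on different slides, so slide and reporter status cannot be told apart. In the pro-B gate 17 members were lower in hCD4+ than in hCD4- arrays (9.06% of all genes were lower) and Mx1 alone was higher (11.5% were higher), with a median log2 change of -0.46 over members and 0.02 over all genes; 20.5% of all genes were called in either direction. In the pre-pro-B gate 9 members were lower (8.12%) and none was higher (8.83%) in the limma fit, with medians of -0.21 and -0.06 and with 16.9% of all genes called in either direction. At an unadjusted p under 0.05, 13 members differed there. Under scaling to the array median, which shifts the median of all genes by 0.30, that split was 2 higher and 2 lower, and the fit to only the 4 arrays compared called none. Isg20, Ddx58, Zbp1 and Xaf1 were lower in both gates, as were 0.948% of all genes. Their pre-pro-B calls held in 19, 16, 8 and 19 of 23 alternatives. In that gate the other probe gave -0.59 for Isg20, -1.57 for Ddx58 and -0.37 for Zbp1, but 0.13 for Xaf1. No member was higher in both, and 1.69% of all genes were.

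The effectors with the largest differences in the pro-B gate were Ifit3 and Gbp2. Ifit3, with the levels given above, was lower in hCD4+ cells, with a change of -1.78 (SE 0.25, limma adjusted p = 0.00243), which was -1.08 under normexp with quantile normalization. The limma change was -1.31 for Gbp2 (SE 0.28, adjusted p = 0.0151) and -0.97 for Rtp4 (SE 0.24, adjusted p = 0.0264). Both calls ended when any 1 of the 4 pro-B arrays was left out, the adjusted p then reaching at most 0.0748 for Gbp2 and 0.148 for Rtp4, though the arrays of the fractions did not overlap. Samd9l (-0.99, SE 0.15, adjusted p = 0.00384), Oasl1 (-0.88, SE 0.19, adjusted p = 0.016) and Ddx58 (-0.82, SE 0.14, adjusted p = 0.00534) were lower too. All 3 of Parp9, Parp14 and Dtx3l were lower, with changes from -0.56 to -0.41, but these calls held in 9, 10 and 9 of 23 alternatives, and the other Dtx3l probes gave -0.13 and 0.23. In the same comparison 0 of 3 antigen processing members were called by limma or had an unadjusted p under 0.05.

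Which arrays were in the fit mattered for the pro-B count. It was 9, 4, 10 and 6 members without hCD4- pro-B replicate 1, hCD4- replicate 2, hCD4+ replicate 1 and hCD4+ replicate 2, and without any filter on dim probes it was 10. Ifit3, Ddx58, Samd9l and Xaf1 were called under every alternative tried. The Mx1 call held in 20 of 23 alternatives, with changes from 0.55 to 0.94. It ended under array-median scaling and without replicate 2 of either pro-B fraction. Beside the members, granulocyte-monocyte progenitor markers were higher in hCD4+ pro-B arrays for 10 of 11 genes, with a summed level of 142 to 157 against 8.88 to 8.96 on hCD4- pro-B arrays, where Prtn3, Cebpa and Ms4a3 were not well above background. Plasmacytoid dendritic cell markers were higher for 12 of 18 and mature neutrophil markers lower for 5 of 7. Their part in the members' differences was not tested.

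In the pre-pro-B gate, Ifit2 was at -1.37 and -1.09 on hCD4- and -2.49 and -2.28 on hCD4+ arrays, a difference of -1.15 (SE 0.20, limma adjusted p = 0.00841), and it was -0.70 under normexp with quantile normalization. Ifit1 is counted among the 9 but was not well above background on any of these 4 arrays, so no size is given, and its call held in 14 of 23 alternatives. Sp100 (-0.92, SE 0.18, adjusted p = 0.0125), Oasl2 (-0.65, SE 0.11, adjusted p = 0.00737), Xaf1 (-0.60, SE 0.11, adjusted p = 0.0106) and Isg20 (-0.59, SE 0.12, adjusted p = 0.0129) were lower in the hCD4+ arrays as well. Under array-median scaling the Oasl2, Xaf1 and Isg20 calls ended, at -0.35, -0.30 and -0.29. With Xaf1 read as the mean of its probes its change was -0.24 (adjusted p = 0.302). The count of 9 became 5 without hCD4- pre-pro-B replicate 2, 4 without hCD4+ replicate 1 and 3 without hCD4+ replicate 2, and no member was called under every alternative. S and G2/M phase markers were higher for 8 of 8 in the hCD4+ arrays and granulocyte-monocyte progenitor markers for 6 of 11, summed to 20.4 to 46.2 against 4.57 to 5.30; their part was not tested.

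**Figure D4:**
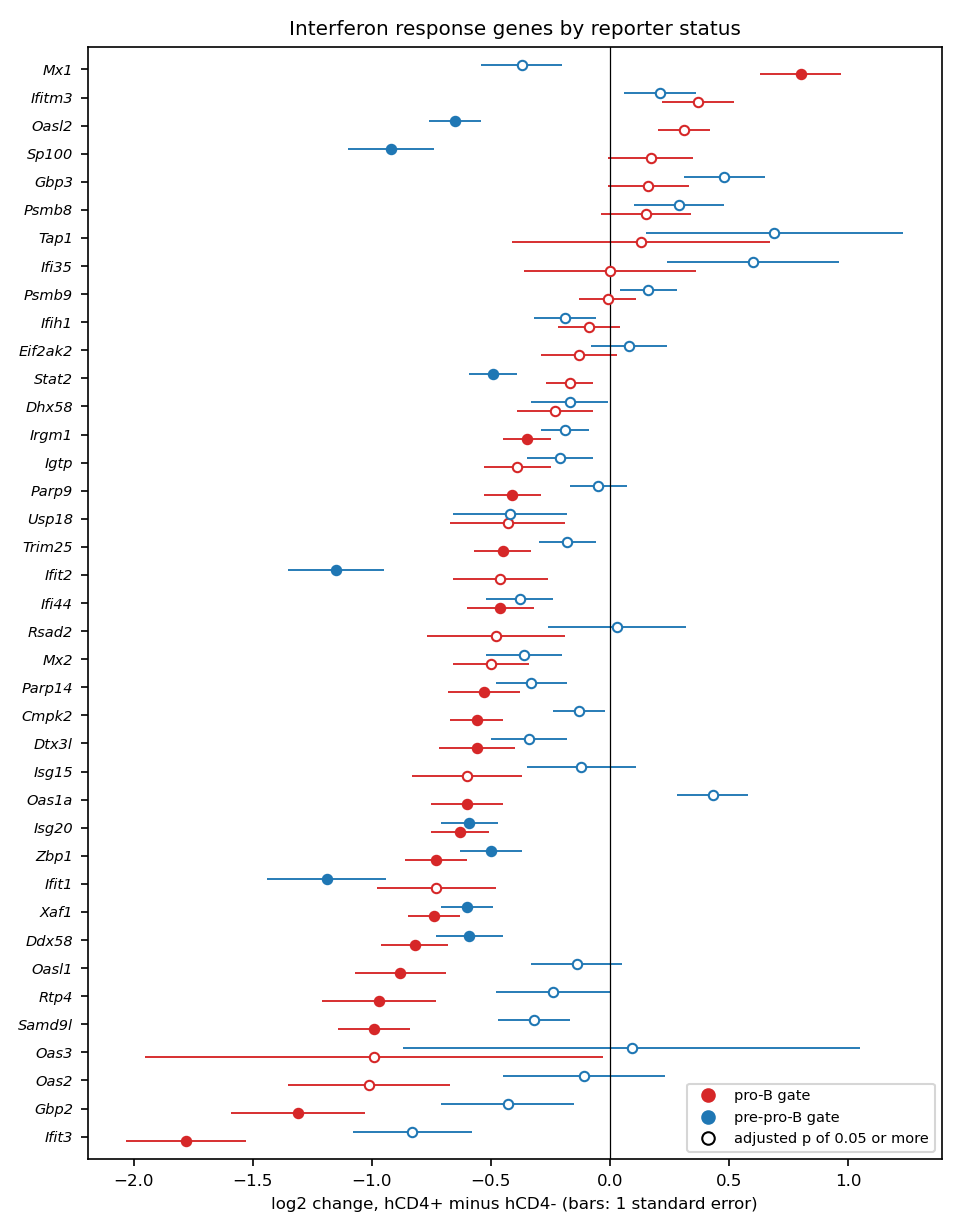
Log2 change of each member between hCD4+ and hCD4- cells in the pro-B gate (red) and in the pre-pro-B gate (blue), with bars of 1 standard error; filled points have an adjusted p under 0.05. Ifit3 lies lowest in the pro-B gate at -1.78, and Mx1, at 0.80, is the only member called higher.

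The reporter difference itself differed between the gates for 4 members, 3 with a higher value in pro-B (12.8% of all genes) and 1 with a lower (10.2%); 23% of all genes were called in either direction. Mx1 was 0.80 higher in hCD4+ pro-B cells (SE 0.17, limma adjusted p = 0.0131) and changed by -0.37 (SE 0.17, adjusted p = 0.163) in the pre-pro-B gate. The difference of these differences was 1.16 for Mx1 (SE 0.23, adjusted p = 0.0118), 1.09 for Sp100 (SE 0.26, adjusted p = 0.0206), 0.96 for Oasl2 (SE 0.16, adjusted p = 0.00536) and -1.03 for Oas1a (SE 0.21, adjusted p = 0.0118), whose other probe gave -0.37. Scaling to the array median shifts this quantity by -0.52 for all genes, and the split was then 0 higher and 17 lower. It was 4 and 5 under normexp with quantile normalization, 3 and 3 under cyclic loess and 4 and 6 in the authors' processed table.

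GMP arrays, compared within 1 slide with hCD4- pre-pro-B arrays, were lower for most members. Of the 39, 29 were lower (30.8% of all genes were lower) and 5 higher (34.7%), with a median log2 change of -1.33 over members and -0.04 over all genes; 65.5% of all genes were called in either direction. Ifi44 was at least 40.8-fold lower in GMP, where its probe was not well above background (limma adjusted p = 3.34e-08). That bound is for the 75th percentile scaling, and the log2 change was -3.56 under normexp with quantile normalization and -3.70 in the authors' processed table, both smaller than it. Mx2 (-5.40, SE 0.16, adjusted p = 7.72e-08), Mx1 (-5.01, SE 0.17, adjusted p = 1.20e-07), Usp18 (-4.76, SE 0.24, adjusted p = 9.31e-07), Samd9l (-4.44, SE 0.15, adjusted p = 1.38e-07) and Stat2 (-3.91, SE 0.10, adjusted p = 4.77e-08) followed. The 5 that were higher were Gbp3 (3.50, SE 0.17, adjusted p = 8.52e-07), Ifitm3 (3.21, SE 0.15, adjusted p = 5.97e-07), Gbp2 (2.30, SE 0.28, adjusted p = 0.000139), Oas1a (2.16, SE 0.15, adjusted p = 4.39e-06) and Rtp4 (1.64, SE 0.24, adjusted p = 0.000402), the last being 0.98 under normexp with quantile normalization. All 5 also rose from pre-pro-B to pro-B; both comparisons use the hCD4- pre-pro-B arrays, so they are not independent. Plasmacytoid dendritic cell markers were lower in GMP for 17 of 18, and Ccr9, Klk1, Klk1b27, Lag3, Ly6d and Spib were not well above background there.

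Pre-B arrays were compared with each pro-B group. Against hCD4- pro-B arrays 20 members were lower (21.2% of all genes) and 4 higher (19.7%), with a median of -0.61 over members and 0.03 over all genes; 41% of all genes were called in either direction. Ifitm3 (-3.26, SE 0.15, limma adjusted p = 2.30e-05), Rtp4 (-2.14, SE 0.24, adjusted p = 0.000385), Ifi44 (-1.91, SE 0.14, adjusted p = 5.58e-05) and Oas1a (-1.82, SE 0.15, adjusted p = 7.87e-05) fell most. Sp100 (1.09, SE 0.18, adjusted p = 0.00234), Samd9l (0.63, SE 0.15, adjusted p = 0.0118), Ddx58 (0.58, SE 0.14, adjusted p = 0.0105) and Stat2 (0.53, SE 0.10, adjusted p = 0.00517) were higher. Sp100 was 0.62 under normexp with quantile normalization and Stat2 0.34 under array-median scaling. The Samd9l and Ddx58 calls ended under array-median scaling and without hCD4- pro-B replicate 1 (0.58 and 0.54), and also without pre-B replicate 1 for Samd9l (0.50) and without pre-B replicate 2 for Ddx58 (0.54). Mature neutrophil markers were lower in pre-B for 6 of 7, with a median of -4.26, and pre-B markers higher for 7 of 7; their part was not tested.

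Against hCD4+ pro-B arrays, on the same slide, pre-B arrays were lower for 15 members (23.8% of all genes) and higher for 11 (19.1%), with medians of -0.28 and 0.02 and with 42.9% of all genes called in either direction. Ifitm3 again fell most (-3.64, SE 0.15, limma adjusted p = 3.25e-06), followed by Ifi44 (-1.45, SE 0.14, adjusted p = 9.74e-05) and Ifih1 (-1.29, SE 0.13, adjusted p = 0.000111). Samd9l (1.62, SE 0.15, adjusted p = 8.54e-05), Ddx58 (1.40, SE 0.14, adjusted p = 0.000102) and Ifit3 (1.18, SE 0.25, adjusted p = 0.00552) rose most. Under normexp with quantile normalization Ifi44 was -0.96 and Ifit3 0.60, and in the authors' processed table Ifih1 was -0.50. Granulocyte-monocyte progenitor markers were lower in pre-B for 9 of 11, with a median of -5.92, and plasmacytoid dendritic cell markers for 11 of 18, with a median of -1.61; their part was not tested. Psmb8 and Psmb9 were lower in pre-B arrays in both of these comparisons, with changes of -0.82 and -0.97 for Psmb8 and of -0.44 in each for Psmb9; the pre-B arrays are shared between them.

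The genes upstream of the members were followed through lists of the pathway, counted under the main scaling alone. Of 19 interferon receptor and proximal signalling genes, 5 rose and 9 fell in the hCD4- step and 2 rose and 9 fell in the hCD4+ step. Over all genes, 32.8% rose and 26.8% fell in the hCD4- step, and 32.9% rose and 21.2% fell in the hCD4+ step. The medians of the 19 genes were -0.91 and -0.85 where those of all genes were 0.03 and 0.25. Ifnar1, with means of 2.97 ± 0.06 (SD, n = 2) and 3.01 ± 0.01 on hCD4- and hCD4+ pre-pro-B arrays, was at 1.16 ± 0.10 and 1.18 ± 0.16 on hCD4- and hCD4+ pro-B arrays. Ifnar2 went from 4.23 ± 0.11 and 3.88 ± 0.14 to 1.38 ± 0.09 and 1.68 ± 0.02. Both chains of the type I receptor were thus lower in pro-B than in pre-pro-B cells, with changes for Ifnar1 of -1.81 (SE 0.13, limma adjusted p = 7.74e-06) and -1.83 (SE 0.13, adjusted p = 1.46e-05), and for Ifnar2 of -2.85 (SE 0.12, adjusted p = 4.33e-07) and -2.21 (SE 0.12, adjusted p = 4.58e-06).

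Irf9, which joins Stat2 in ISGF3, moved in the same direction as Stat2. Irf9 fell from 4.01 ± 0.06 and 3.69 ± 0.02 (SD, n = 2) in the hCD4- and hCD4+ pre-pro-B arrays to 2.29 ± 0.07 and 2.18 ± 0.01 in pro-B, with changes of -1.72 (SE 0.10, limma adjusted p = 1.84e-06) and -1.51 (SE 0.10, adjusted p = 8.68e-06). The chains of the interferon gamma receptor differed from those of type I: Ifngr1 rose by 1.01 (SE 0.16, limma adjusted p = 0.000676) and 0.80 (SE 0.16, adjusted p = 0.00311), and Ifngr2 changed by 0.44 (SE 0.13, adjusted p = 0.0188) and 0.14 (SE 0.13, adjusted p = 0.378). Il28ra, the lambda interferon receptor chain, was well above background on every pro-B and pre-B array and on no pre-pro-B or GMP array. Socs1, a feedback inhibitor of the receptor kinases, was not called in either step, but was lower in hCD4+ than hCD4- pro-B arrays (-0.88, SE 0.19, adjusted p = 0.0139).

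Among 18 tested genes of sensing adaptors, kinases and interferon regulatory factors, 1 rose and 12 fell in the hCD4- step (32.8% and 26.8% of all genes). In the hCD4+ step none rose and 12 fell (32.9% and 21.2%). The medians were -0.96 and -0.78. Irf7, the factor that drives interferon alpha genes, was at 1.18 ± 0.10 and 0.62 ± 0.10 (SD, n = 2) on hCD4- and hCD4+ pre-pro-B arrays and at -2.90 ± 0.22 and -2.61 ± 0.54 on pro-B arrays, and it was not well above background on GMP arrays. Its changes were -4.08 (SE 0.34, limma adjusted p = 1.85e-05) and -3.23 (SE 0.34, adjusted p = 0.000117). Irf8, a factor of dendritic and B cells, changed by -4.54 and -2.64, and Tmem173, which encodes the adaptor STING, by -2.27 and -1.81. Of 58 further interferon-inducible genes tested, 16 rose and 27 fell in the hCD4- step (32.8% and 26.8% of all genes). In the hCD4+ step 13 rose and 29 fell (32.9% and 21.2%). Their medians were -0.51 and -0.40. Bst2, which encodes tetherin, changed by -4.70 (SE 0.27, adjusted p = 2.13e-06) and -3.28 (SE 0.27, adjusted p = 3.22e-05), while Ifitm2, a relative of Ifitm3, rose by 5.84 and 4.43. Of 15 interferon ligand genes on the array, 7 were tested. Ifna1, Ifna14, Ifnab and Il28b were well above background on all 12 arrays but dim. Their group means ran from -4.06 to -2.40, where the detection floors of the arrays were -4.91 to -3.97. Ifnb1 and Ifng were well above background on 1 array each, and Ifna2, Ifna4, Ifna7, Ifna11 and Ifna13 on none. In the hCD4- step 3 of the 7 fell (26.8% of all genes) and none rose (32.8%). In the hCD4+ step 2 rose (32.9%) and 1 fell (21.2%). Ligand genes were higher in hCD4+ than hCD4- pro-B arrays for 2 of 7 (11.5% of all genes). They were higher in pre-B than hCD4- pro-B arrays for 4 of 7 (19.7%). Ifna12, counted in both, was not well above background on either hCD4- pro-B array.

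Several members had a second probe that read a different size of change. Beside Trim25 and Xaf1, the other 2 probes of Dtx3l gave -1.33 and -1.38 between hCD4+ and hCD4- pre-pro-B arrays where the brightest gave -0.34, and -2.19 and -2.36 between GMP and hCD4- pre-pro-B arrays where it gave -0.89. The other Zbp1 probe gave -2.28 in that last comparison against -1.21. For Ifih1 the other probe did not exceed background on any array, and is not compared. For Oas1a the other probe, well above background on all 12 arrays, gave -0.37 against -1.03 for the difference between gates and -0.12 against -0.60 for hCD4 in the pro-B gate. The remaining probes of the 12 members with several differed by less than 1 log2 unit from the brightest in every comparison.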

How the data were processed

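The authors deposited 1 scanner file per array, per the file headers from Agilent Feature Extraction 10.7.3.1, with a background-corrected processed intensity on the linear scale. The deposited table of processed values, log2 per the file headers, whose normalization is not given in the sources used here, served as an alternative. Here control spots were dropped, outlier spots set to missing, spots of a probe averaged, and log2 intensity centred on each array's 75th percentile. A gene entered if some group had its probe above background (gIsWellAboveBG) on both arrays; the brightest probe stood for a gene. limma 3.58.1 in R 4.3.3 fitted all 12 arrays in 6 groups (6 residual and 2.14 prior degrees of freedom), two-sided, with Benjamini-Hochberg adjustment over 18556 genes within each of 9 comparisons and a threshold of 0.05. The number of arrays limits the precision. On simulated data of 18535 genes for the pre-pro-B comparison, changes of 0.5, 1 and 2 log2 units were recovered in 3.17%, 30.7% and 77.4% of cases. Only 63, 75 and 62 genes were given these changes, while 16.9% of all genes were called in the data. The Benjamini-Hochberg cut depends on that share, so these rates do not give the recovery in the data. Up to 6 rises and 6 falls per comparison were named with tests, largest first, and the pathway genes Irf7, Irf9, Ifnar1, Ifnar2, Ifngr1, Ifngr2, Socs1 and Bst2 always (1 further gene of that rule is not reported here); changes of the remaining members, chosen after their values were seen, account for each member. The members and lists were chosen with earlier results of these data known. Promoter windows came from RefSeq. Figures were drawn with matplotlib 3.10.9 in Python 3.11.15.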

Additional observations from a re-analysis of the deposited data

Results flagged for a closer look

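In 4 members the difference between hCD4+ and hCD4- cells differed between the pro-B and pre-pro-B gates by a test of the difference itself. It was 1.16 for Mx1, 1.09 for Sp100, 0.96 for Oasl2 and -1.03 for Oas1a on the log2 scale. Oasl2 was lower in hCD4+ than hCD4- pre-pro-B arrays (-0.65) and its change in the pro-B gate was 0.31 (limma adjusted p = 0.0868). Oas1a was lower in hCD4+ pro-B arrays (-0.60, adjusted p = 0.0241), and its change in the pre-pro-B gate was 0.43 (adjusted p = 0.0828). The Mx1, Sp100 and Oasl2 calls ended under array-median scaling, at 0.64, 0.57 and 0.44, and the Oas1a call ended without hCD4- pro-B replicate 2 (-0.95, adjusted p = 0.0501). The other Oas1a probe gave -0.37 for this difference. Sp100 also lost its call without any 1 of hCD4+ pre-pro-B replicate 2, hCD4- pro-B replicates 1 and 2 and hCD4+ pro-B replicate 1, at 1.01, 1.12, 1.06 and 0.92.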

How the results depend on the processing

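Counts of members called moved by over 1.5 times in 3 comparisons. For hCD4 in the pre-pro-B gate (9 in the fit reported) they were 4 under array-median scaling, 4 with array weights and 0 with only the arrays compared. For hCD4 in the pro-B gate (18) the count was 10 with no filter on dim probes. For the difference between gates (4) it was 9 under normexp with quantile normalization, 17 under array-median scaling and 10 in the authors' processed table. Leaving out 1 array at a time gave 3 to 12, 4 to 19 and 2 to 6 members in these comparisons, 20 to 26 and 24 to 27 in the hCD4- and hCD4+ steps, 18 to 25 and 18 to 26 for pre-B against hCD4- and hCD4+ pro-B, 30 to 34 for GMP, 22 to 27 for hCD4- pro-B and hCD4+ pre-pro-B compared within a slide, and 36 to 38 for the F test. The cause was not tested. With the replicate number as a block the counts were 9, 16, 5, 24, 27, 24, 33, 25 and 26 for the 9 comparisons in the order hCD4 in pre-pro-B, hCD4 in pro-B, difference of these, hCD4- step, hCD4+ step, pre-B against hCD4- pro-B, GMP, the comparison within the second slide, and pre-B against hCD4+ pro-B; none moved by over 1.5 times. Whether the number pairs arrays is not established: between the 15 pairs of groups, deviations of replicate 1 correlated at -0.00683 to 0.255. A slide block was possible for the 3 comparisons within a slide. Calls held under every alternative for 20 of 25 members in the hCD4- step, 19 of 26 in the hCD4+ step, 28 of 34 for GMP and 4 of 18 for hCD4 in the pro-B gate. Of all member changes called, those of Trim25 for hCD4 in the pro-B gate and of Cmpk2 and Psmb9 for GMP turned sign under an alternative, reaching 0.21, 0.05 and 0.10.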
